A study of Mus musculus with 12 samples.

Results

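The genes described here are 89 genes whose level was higher in LPS-tolerant bone marrow-derived macrophages than in untreated, acutely stimulated or recovered macrophages. They were chosen by measured values, so the comparison of tolerant cells with the other groups is a description of the choice and carries no test. For each of 35482 gene names on the array the brightest probe was taken, and for 20487 names at least one group had that probe well above background throughout. Of the 18459 names well above background on all tolerant arrays, 103 had a tolerant mean at least 1 log2 unit above each of the other group means and a lowest tolerant array above all 9 other arrays. A rule on names then left out 14 of these (among them Smad6, Ankrd37, Slc16a3, Lcn2, Csf2, Il4i1, Cx3cr1 and Ly6a), which gave the 89 members. A link to a reference gene name was found for 82 of the 89, and the others are called by the array's own name.

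The macrophages were grown from the bone marrow of female C57BL/6 mice aged 6 to 8 weeks, during 7 days in medium conditioned by L929 cells, a fibroblast line that releases the macrophage growth factor CSF1. Lipopolysaccharide (LPS) is the outer membrane glycolipid of Gram-negative bacteria. Untreated cells received none, and acute cells received LPS for 4 h. Tolerant cells received LPS for 8 h, rested for 16 h and received LPS again for 4 h. Recovered cells went through the same 2 exposures with a longer rest, given as 88 h for each sample and as 2 to 4 days in the general protocol. Each group had 3 one-colour arrays from 3 independent experiments. Separate animals were not stated, so the p-values measure the spread between these samples. Cells given the first LPS without the second were not analysed here, so the effect of the first exposure alone cannot be told apart from the effect of both.

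All 12 arrays read all 9 detected macrophage markers well above background. Of the neutrophil markers, Ngp, Ltf, S100a9 and Cxcr2 were not well above background, and the summed signal of the neutrophil list ranged from 11.2 to 19.0 times the array's 75th percentile in tolerant cells and from 10.8 to 16.4 times in untreated cells, with 3 of its 8 genes detected. S100a8 of this list is itself a member, and so higher in tolerant cells. The probe that the array describes as Ly6g is a member too and is not in the sum. The part of neutrophils in these values was not tested. The dendritic cell markers Flt3, Xcr1 and Clec9a were not well above background on all arrays of any group, and the summed list, with 4 of 7 detected, ranged from 8.00 to 19.0 in tolerant and from 9.51 to 22.1 in untreated cells. The erythroid and platelet list, of which 2 of 5 genes were detected, ranged from 28.9 to 62.9 in tolerant, 15.4 to 33.3 in untreated and 87.7 to 127 in recovered cells, and the part of such cells in the results was not tested. In bulk RNA, fewer cells of a type and less RNA per cell cannot be told apart.

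LPS tolerance is the state in which macrophages that have met LPS answer a second dose with a weaker induction of many inflammatory genes, while other genes stay inducible or are induced further. Several members belong to the response to low oxygen, in which prolyl hydroxylases mark the factor HIF for degradation when oxygen is present, and HIF otherwise raises genes of glycolysis and mitochondrial turnover. Others belong to signalling by TGF-beta and bone morphogenetic proteins, in which receptors phosphorylate SMAD proteins that raise the ID genes and, as feedback, the inhibitory SMADs.

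The upstream sequences of 4 members are shown because these genes stand for the low-oxygen group. The core searched for their shared factor HIF was ACGTG, and other forms of the core were not searched. The 250 bases before the start of each gene are from RefSeq promoters on GRCm38.p6, read 5′ to 3′ along the gene's own strand, with ACGTG on either strand in capitals. Mgarp lies at chr3:51396548-51396797, Egln3 at chr12:54203875-54204124, Bnip3 at chr7:138909507-138909756 and Pfkl at chr10:78009808-78010057, each on the minus strand.
Mgarp: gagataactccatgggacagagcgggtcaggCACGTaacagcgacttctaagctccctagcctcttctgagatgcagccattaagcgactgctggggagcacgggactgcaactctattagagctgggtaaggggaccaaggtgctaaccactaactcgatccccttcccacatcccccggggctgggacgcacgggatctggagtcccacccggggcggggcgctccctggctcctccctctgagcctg
Egln3: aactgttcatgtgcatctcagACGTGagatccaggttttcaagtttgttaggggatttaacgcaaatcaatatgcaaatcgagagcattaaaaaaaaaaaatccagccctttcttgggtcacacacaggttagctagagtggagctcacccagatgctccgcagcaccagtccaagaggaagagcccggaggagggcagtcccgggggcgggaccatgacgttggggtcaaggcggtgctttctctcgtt
Bnip3: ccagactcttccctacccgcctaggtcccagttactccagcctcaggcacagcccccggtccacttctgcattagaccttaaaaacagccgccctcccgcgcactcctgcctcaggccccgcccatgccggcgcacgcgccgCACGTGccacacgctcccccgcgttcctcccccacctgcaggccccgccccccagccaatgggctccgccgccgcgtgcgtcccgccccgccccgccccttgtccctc
Pfkl: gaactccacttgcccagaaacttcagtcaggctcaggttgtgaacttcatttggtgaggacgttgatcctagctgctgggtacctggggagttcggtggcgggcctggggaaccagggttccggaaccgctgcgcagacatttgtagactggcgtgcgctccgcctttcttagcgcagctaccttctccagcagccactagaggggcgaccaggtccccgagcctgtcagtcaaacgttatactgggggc
The core began 219 bases upstream of the Mgarp start and 229 bases upstream of the Egln3 start. In Bnip3 a palindromic CACGTG held overlapping matches, 1 on each strand, the first 108 bases upstream. The Pfkl window held none, which says only that these letters are not in it and not that it lacks every form of the core.

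The same windows were counted for 78 promoters of 61 members against 32851 promoters in the table. The core ACGTG was in 10.3% of the members' windows and in 16.6% of all windows, and the 8 member genes that held it were Bcar1, Bnip3, Chadl, Dnmt3l, Egln3, Gatm, Mgarp and Slpi. Of the other motifs searched on both strands, TGANTCA (AP-1) was in 10.3% against 6.75%, GGGNNTTCC (NF-kB) in 7.69% against 4.98%, and TTGCNNAA (C/EBP) in 7.69% against 9.56%. GGCGCC, read by BMP-activated SMADs, was in 8.97% against 9.59%, TTCNNNGAA (STAT) in 2.56% against 7.02%, and GGGCGG (GC box) in 41.0% against 32.7%. CACGTG, which contains the ACGTG core, was in 3.85% against 6.02%, and TATAAA, searched forward only, in 5.13% against 7.59%. A match of letters is a description of the sequence and not a bound site.

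Levels below are log2 values of the processed signal after each array's 75th percentile was set to the mean of the 12 arrays' percentiles, 8.65. Levels of different probes are not comparable with each other. Each level or difference is in log2 units, and ± is the SD of n = 3 arrays unless it is named as a standard error. Where a probe was not well above background in a group, the difference is given as a lower bound, at least N-fold, against the lowest signal that was well above background on those arrays or the probe's own signal, whichever was higher. Where only some arrays of a group measured a probe, their number is given with the fold.

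The distance from the tolerant mean to the next highest group mean ranged from 1.01 for Rest to 3.96 for Mgarp, with a median of 1.40, or 2.65-fold. It was at least 2 for 13 members. The next highest group was the recovered one for 49 members, the untreated one for 31 and the acute one for 9. The lowest tolerant array stood above the highest other array by 0.01 to 2.99, with a median of 0.63. This distance was above 1 for 19 members and under 0.1 for 9. Tolerant array 3 was the lowest of the tolerant arrays for 46 members. Just inside the limit of 1 lay Rest at 1.01, the transcript ENSMUST00000105399 at 1.01 and Ldlrad4 at 1.02, and just outside it Cdk5r1 at 1.00, Llgl2 at 0.99 and B9d1 at 0.97. Just inside the rule on overlap lay Kif9 at 0.01, D5Ertd605e at 0.01 and Ppp1r12b at 0.02, and just outside it LOC100048875 at -0.06, Wfdc21 at -0.09 and Six5 at -0.11. For 60 members the probe was well above background on all 12 arrays, and for 5 it was so on no array outside the tolerant group.

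**Figure D1:**
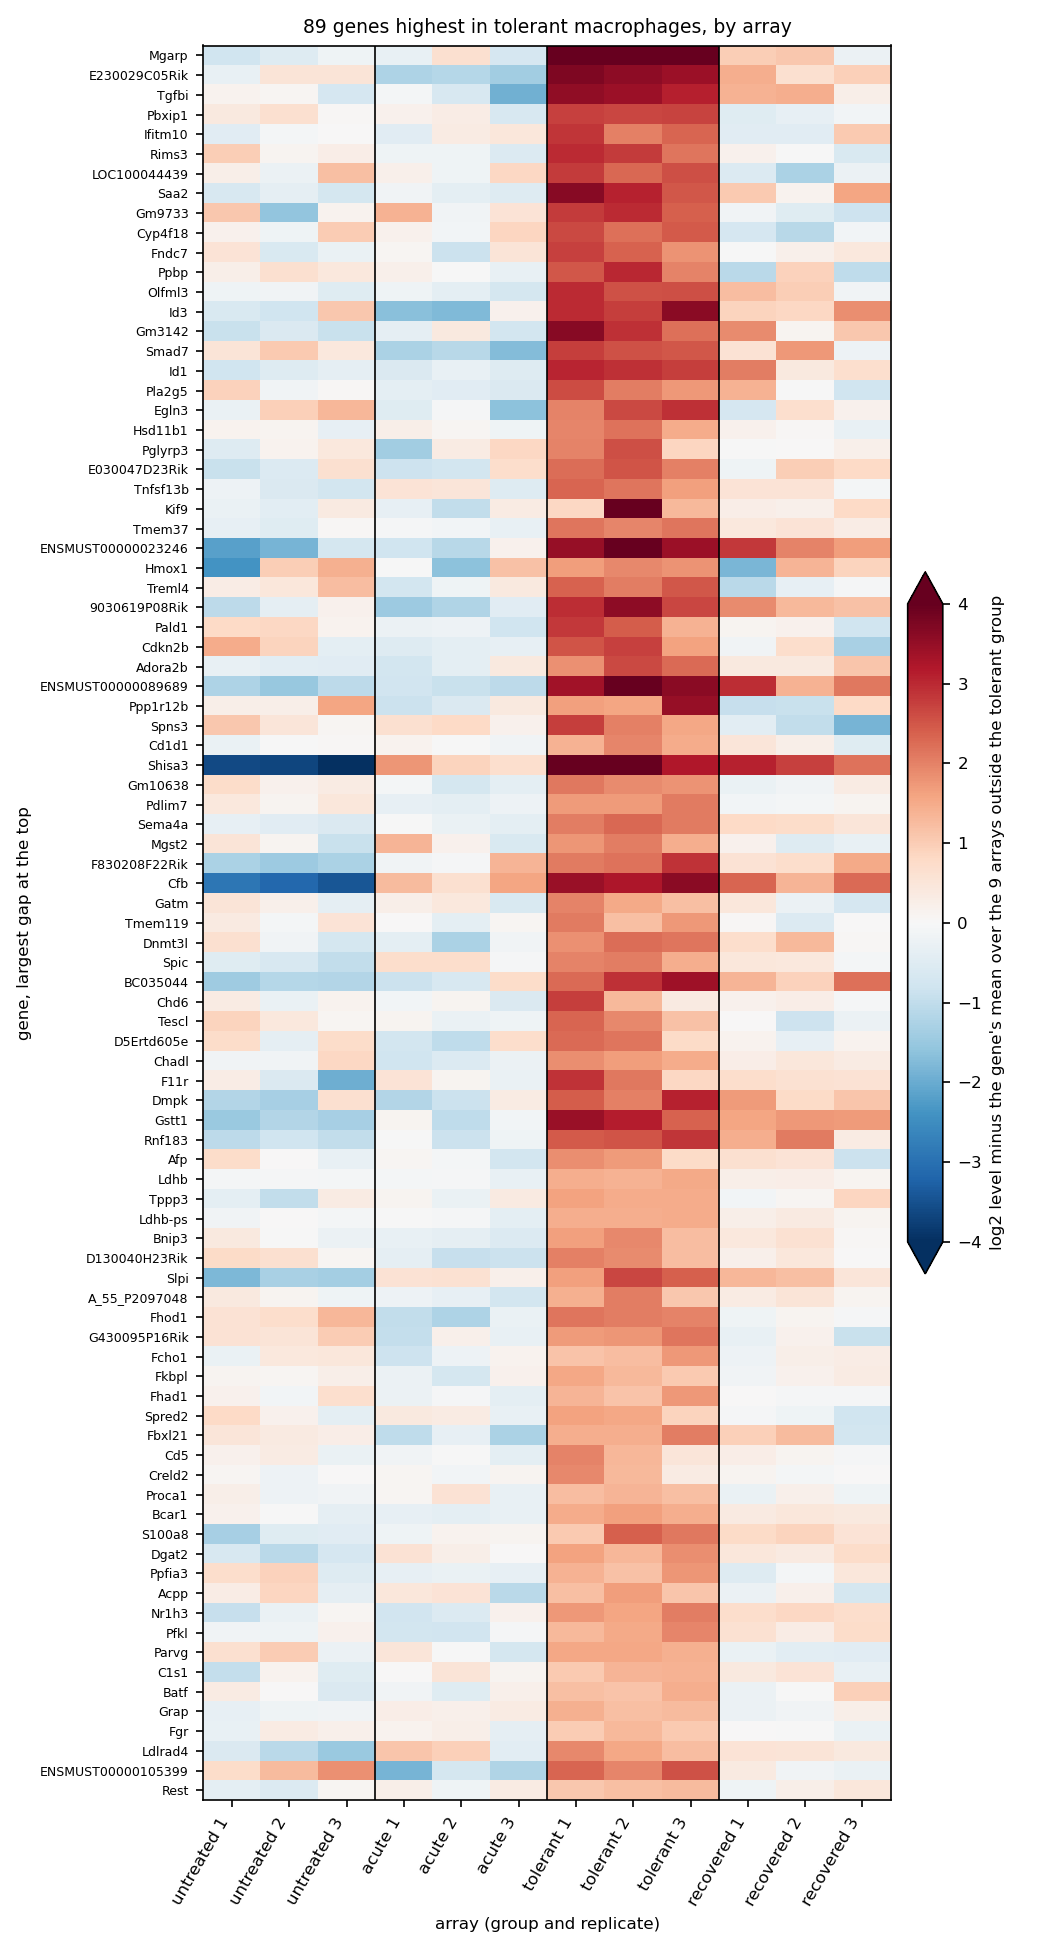
Heat map of the 89 members (rows, largest distance to the next group at the top) on the 12 arrays (columns). Colour gives the log2 level minus the gene's mean over the 9 arrays outside the tolerant group, and values past ±4 share the end colour. The 3 tolerant columns are red in each row, as the choice of members requires, while Shisa3 and Cfb are blue in untreated cells only.

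The low-oxygen and carbohydrate genes were 7 members, with the recovered group next highest for 6 of them. Mgarp, a mitochondrial protein raised by HIF that links mitochondria to their transport along microtubules, had levels of 7.49, 7.63 and 6.80 on the tolerant arrays. It read 1.92, 2.21 and 2.55 on the untreated arrays, 2.43, 3.37 and 2.07 on the acute arrays and 3.70, 3.81 and 2.50 on the recovered arrays, none of these 9 well above background. Only the tolerant arrays thus measured Mgarp, at a mean of 7.30 ± 0.44. Its signal in tolerant cells was at least 33.7-fold above untreated, at least 25.6-fold above acute and at least 15.6-fold above recovered cells. The Mgarp probe lies at chr3:51192355-51192414 of mm9.

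Egln3, the prolyl hydroxylase PHD3 that acts on HIF and is itself a HIF target, had tolerant levels of 6.16, 6.82 and 7.09. Its untreated levels were 3.91, 5.12 and 5.50, its acute levels 3.68, 4.13 and 2.52 and its recovered levels 3.50, 4.83 and 4.36. The probe was well above background on 2 untreated arrays, no acute array and 1 recovered array. The tolerant mean was 3.6-fold above untreated, at least 9.48-fold above acute and 5.5-fold above recovered cells. The other prolyl hydroxylases did not share this order, since the tolerant mean lay below the highest other group mean for Egln1 (-0.43) and Egln2 (-0.65).

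Bnip3, a mitochondrial outer membrane protein that promotes the removal of mitochondria by autophagy, had tolerant levels of 13.22, 13.50 and 12.79. Recovered arrays read 12.001, 12.18 and 11.63, untreated arrays 11.97, 11.55 and 11.33 and acute arrays 11.27, 11.20 and 11.01. The tolerant level was 2.93-fold the untreated, 4.02-fold the acute and 2.35-fold the recovered level, and untreated and recovered arrays overlapped. For its relative Bnip3l the tolerant mean stood only 0.05 above the next group.

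Pfkl, the liver form of phosphofructokinase, which commits sugar to glycolysis, had tolerant levels of 11.05, 11.27 and 11.70. The recovered levels were 10.37, 10.03 and 10.49, the untreated levels 9.62, 9.59 and 9.93 and the acute levels 9.02, 8.98 and 9.71. The groups ran from acute through untreated and recovered to tolerant, with overlap of acute and untreated arrays, and the tolerant level was 3.09-fold the untreated, 4.30-fold the acute and 2.06-fold the recovered one. The muscle form Pfkm lay -0.24 and the platelet form Pfkp -2.08 from the highest other group mean, so the tolerant group was not the highest for either.

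Ldhb, the lactate dehydrogenase subunit that favours pyruvate, had tolerant levels of 11.24, 11.18 and 11.30, against 10.02, 10.04 and 9.90 in recovered, 9.70, 9.74 and 9.72 in untreated and 9.72, 9.74 and 9.50 in acute cells. It was 2.86-fold above untreated cells, and its tolerant arrays differed by an SD of 0.06. The probe named for the pseudogene Ldhb-ps followed the same values, with tolerant levels of 11.18, 11.17 and 11.19, and the 2 transcripts cannot be told apart here. For Ldha, the other subunit, the tolerant mean was 0.51 above the next group.

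Hmox1, the heme oxygenase that breaks down heme, was high on all tolerant arrays at 15.58, 15.84 and 15.70 but uneven elsewhere. Its untreated levels were 11.53, 14.91 and 15.34, its acute levels 13.89, 12.29 and 15.10 and its recovered levels 12.09, 15.27 and 14.80. The SD was 0.13 in tolerant cells against 2.09, 1.41 and 1.72 in untreated, acute and recovered cells, and the mean differences from those groups were 1.78, 1.95 and 1.65. The difference was thus smaller than the SD of the untreated and of the recovered arrays.

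**Figure D2:**
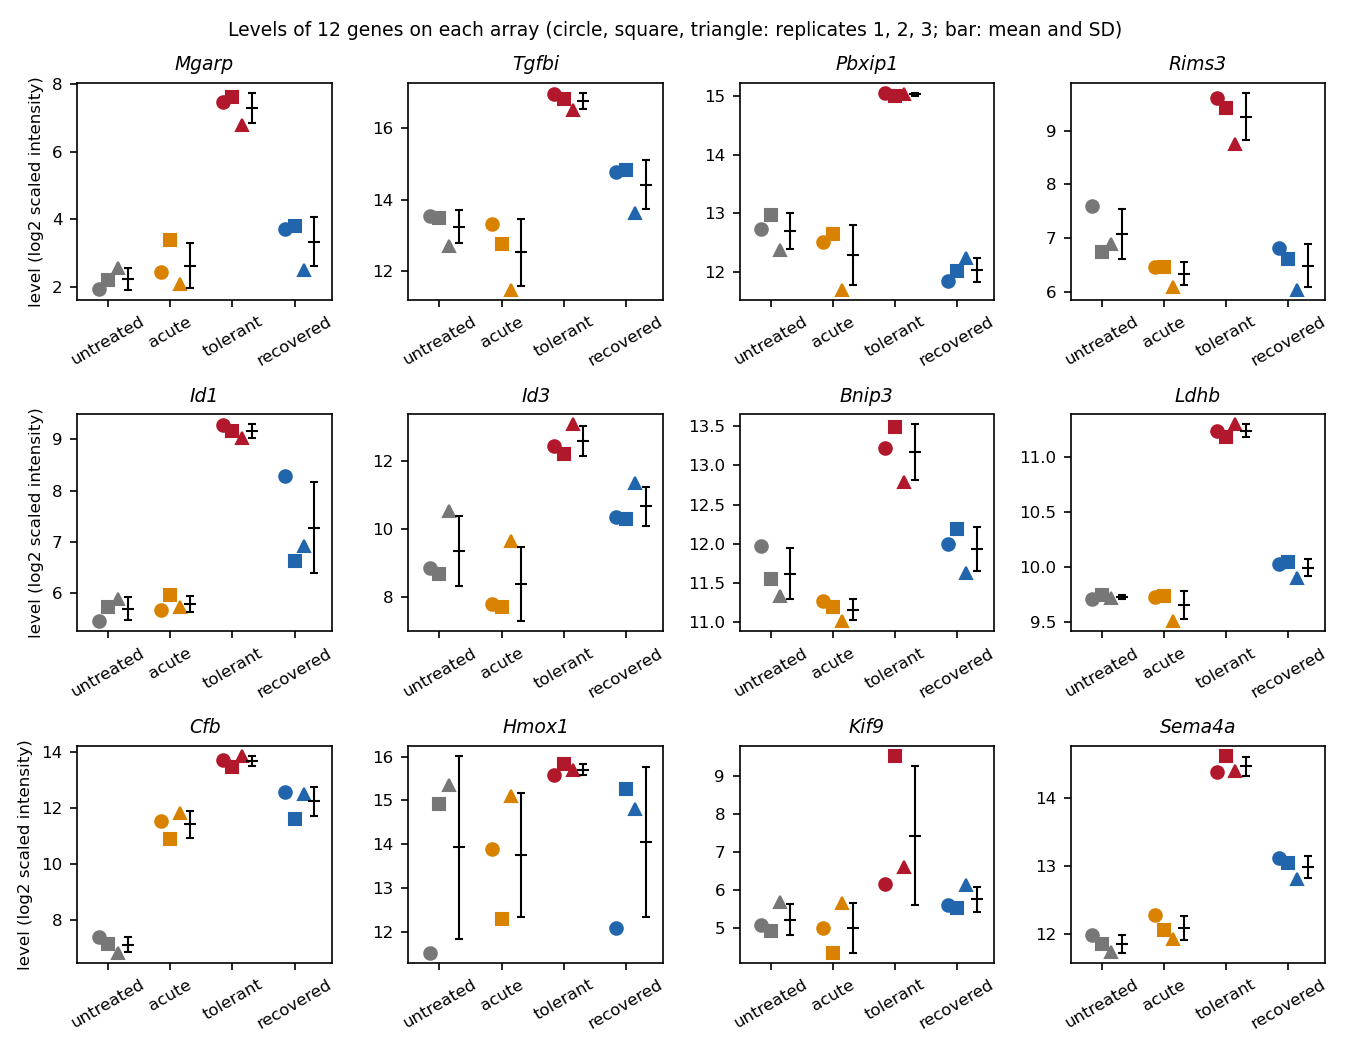
Level of 12 members on each array, with a panel for each gene and its own vertical axis (log2 scaled intensity, axes do not start at 0). Circles, squares and triangles are replicates 1, 2 and 3, and bars are the mean and SD of 3 arrays. Pbxip1 reads close to 15 on all tolerant arrays, Hmox1 spreads over more than 3 units in untreated cells, and the Kif9 mean is carried by tolerant array 2.

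The TGF-beta and BMP group held 5 members. Id1, a helix-loop-helix protein without a DNA-binding region that is a standard target of BMP signalling, had tolerant levels of 9.29, 9.17 and 9.02. Untreated arrays read 5.44, 5.73 and 5.88, acute arrays 5.65, 5.95 and 5.72, and recovered arrays 8.29, 6.62 and 6.91. Untreated and acute arrays overlapped and recovered arrays lay between them and the tolerant ones. The tolerant level was 11.1-fold the untreated, 10.5-fold the acute and 3.70-fold the recovered level.

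Id3, of the same family, had tolerant levels of 12.44, 12.22 and 13.08 and recovered levels of 10.36, 10.29 and 11.34. Its untreated levels were 8.85, 8.67 and 10.53 and its acute levels 7.80, 7.70 and 9.64. Replicate 3 was the highest of its group in all 4 groups. The tolerant level was 9.38-fold the untreated, 18.3-fold the acute and 3.77-fold the recovered level. The family did not move as a whole, since Id2 had a tolerant mean only 0.04 above the next group and no array read Id4 well above background.

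Smad7, an inhibitory SMAD that blocks TGF-beta receptors, had tolerant levels of 6.41, 6.20 and 6.13. Its untreated levels were 4.17, 4.69 and 4.07, its acute levels 2.39, 2.53 and 1.90 and its recovered levels 4.22, 5.39 and 3.44. The probe was well above background on 2 untreated, no acute and 1 recovered array, which makes the tolerant level 3.84-fold the untreated, at least 15.7-fold the acute and 3.72-fold the recovered one. Smad6, the other inhibitory SMAD, met the same values with a distance of 3.61 to the next group and was left out by its name.

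Tgfbi, a matrix protein raised by TGF-beta, had tolerant levels of 16.95, 16.81 and 16.49, recovered levels of 14.78, 14.83 and 13.62, untreated levels of 13.53, 13.48 and 12.71 and acute levels of 13.32, 12.76 and 11.48. The tolerant level was 11.4-fold the untreated, 18.8-fold the acute and 5.06-fold the recovered level. Ldlrad4, a membrane protein that restrains TGF-beta signalling by binding SMADs, had a tolerant mean of 6.06 ± 0.34 against 5.05 ± 0.84 in acute and 4.99 ± 0.08 in recovered cells, and was not well above background in untreated cells. For the ligand gene Tgfb1 the tolerant mean lay -0.92 from the highest other group. For the BMP ligand gene Bmp2 it lay -3.74 from it, with 1 tolerant array and all arrays of the other groups well above background.

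Secreted defence and acute-phase proteins were 9 members. Cfb, complement factor B of the alternative pathway, read 13.72, 13.48 and 13.85 in tolerant, 12.57, 11.62 and 12.52 in recovered, 11.53, 10.90 and 11.84 in acute and 7.37, 7.12 and 6.82 in untreated cells. Cfb in tolerant cells was 95.6-fold the untreated, 4.79-fold the acute and 2.72-fold the recovered level. All arrays given LPS thus stood above all untreated ones, with overlap between acute and recovered arrays. C1s1, a protease of the classical complement pathway, had a tolerant mean of 6.06 ± 0.19 and was 2.07-fold above acute and 2.06-fold above recovered cells. Of the recovered arrays, 2 read it well above background. The order did not extend to C2, for which the tolerant mean was 0.29 above the next group, or to C1ra (-1.04).

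Slpi, a secreted inhibitor of leukocyte proteases that also dampens NF-kB, had tolerant levels of 13.05, 14.10 and 13.80. Its recovered levels were 12.76, 12.63 and 11.91, its acute levels 11.98, 12.03 and 11.61 and its untreated levels 9.63, 10.13 and 10.07. Slpi was thus highest in tolerant and lowest in untreated cells, 13.0-fold apart. S100a8, an alarmin subunit of calprotectin, had tolerant levels of 10.08, 11.42 and 11.17, 6.09-fold above untreated, 3.52-fold above acute and 2.16-fold above recovered cells, while no array read the probe for its partner S100a9 well above background.

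Saa2, an acute-phase apolipoprotein, was well above background only on the tolerant arrays, at 6.17, 5.61 and 4.999. It was at least 12.4-fold above untreated, at least 10.7-fold above acute and at least 4.44-fold above recovered cells. For Saa1 and Saa3 the tolerant mean was the highest too, by 0.73 and 0.82, which is under the limit of the rule. Ppbp, the precursor of the platelet chemokine CXCL7, was also measured only on the tolerant arrays, at 5.93, 6.47 and 5.42, and at least 4.21-fold above untreated, 5.82-fold above acute and 7.36-fold above recovered cells. The platelet marker Pf4 lies in the erythroid and platelet list, whose summed signal was higher in recovered than in tolerant cells as given above.

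Tnfsf13b, the B cell survival factor BAFF, had tolerant levels of 9.86, 9.68 and 9.17 against 8.06, 8.06 and 7.45 in recovered, 8.09, 8.00 and 7.00 in acute and 7.33, 6.95 and 6.80 in untreated cells. It was 5.82-fold above untreated and 3.27-fold above recovered cells. Pglyrp3, a peptidoglycan-binding protein, had a tolerant mean of 5.93 ± 0.88, and its lowest tolerant array, 4.98, was barely above the highest other, 4.95. Afp, alpha-fetoprotein, had a tolerant mean of 11.57 ± 0.60 against 10.27 ± 0.53 in untreated cells.

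Receptors and surface proteins were 9 members. Shisa3, which retains Wnt and FGF receptors in the endoplasmic reticulum, had tolerant levels of 10.44, 10.69 and 9.09. Recovered arrays read 8.97, 8.62 and 8.06 and acute arrays 7.63, 6.76 and 6.54, while no untreated array (2.27, 2.20 and 1.86) was well above background. Shisa3 was at least 250-fold above untreated, 8.57-fold above acute and 2.88-fold above recovered cells, and the 4 groups did not overlap.

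Sema4a, a semaphorin that costimulates T cells, read 14.37, 14.61 and 14.39 in tolerant, 13.11, 13.04 and 12.81 in recovered, 12.29, 12.06 and 11.94 in acute and 11.996, 11.85 and 11.74 in untreated cells. It was 6.04-fold above untreated, 5.14-fold above acute and 2.77-fold above recovered cells. Adora2b, a receptor for extracellular adenosine that raises cyclic AMP, had tolerant levels of 9.25, 10.08 and 9.69 and was 6.16-fold above untreated, 5.62-fold above acute and 3.05-fold above recovered cells. For its relative Adora2a the tolerant mean lay -0.20 from the highest other group.

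The remaining surface proteins had smaller or less even differences. Treml4, a TREM-like receptor, had tolerant levels of 8.12, 7.82 and 8.27 and was lowest in recovered cells, at 4.69, 5.46 and 5.71, a difference of 6.90-fold. Ifitm10, of the interferon-induced transmembrane family, was measured only on the tolerant arrays, at 5.43, 4.60 and 4.89, at least 5.89-fold above untreated, 4.75-fold above acute and 4.92-fold above recovered cells. Cd1d1, which presents lipids to NKT cells, was 2.88-fold above recovered cells and 3.21-fold above untreated cells. Tmem119, best known as a marker of microglia, was 2.65-fold above untreated cells. F11r, the junctional adhesion molecule A, spread from 8.68 to 10.73 over the tolerant arrays, and Cd5, a scavenger-like receptor known from T and B cells, from 6.76 to 8.23. Of the lymphocyte markers 3 of 9 were detected, and their summed signal ranged from 11.6 to 12.9 in tolerant against 15.9 to 17.1 in untreated cells.

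Regulators of transcription and chromatin were 7 members. Pbxip1, which binds PBX homeodomain proteins and estrogen receptors, had tolerant levels of 15.06, 15.01 and 15.03, an SD of 0.03. Its untreated levels were 12.74, 12.98 and 12.37, its acute levels 12.52, 12.65 and 11.70 and its recovered levels 11.85, 12.01 and 12.25. Acute arrays overlapped both untreated and recovered ones, and the tolerant level was 5.05-fold the untreated, 6.70-fold the acute and 7.99-fold the recovered one.

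Spic, a factor needed for the macrophages that recycle red cell iron, had tolerant levels of 11.78, 11.85 and 11.25 and acute levels of 10.51, 10.50 and 9.75. Recovered arrays read 10.26, 10.22 and 9.73 and untreated arrays 9.31, 9.15 and 8.82. Spic was 5.78-fold the untreated, 2.59-fold the acute and 2.94-fold the recovered level. Nr1h3, the oxysterol receptor LXR-alpha, read 14.62, 14.46 and 14.93 in tolerant and 13.58, 13.70 and 13.59 in recovered cells, with 11.97, 12.62 and 12.95 in untreated and 12.11, 12.34 and 13.06 in acute cells. Its targets Abca1 (-0.31) and Abcg1 (-1.39) and its relative Nr1h2 (-0.10) had tolerant means below the highest other group mean.

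Dnmt3l, a catalytically inactive partner of the DNA methyltransferases, had tolerant levels of 10.07, 10.50 and 10.41, 4.42-fold above untreated, 6.4-fold above acute and 2.64-fold above recovered cells. Batf, an AP-1 family factor, was 2.05-fold above recovered and 2.54-fold above untreated cells. Rest, a repressor of neuronal genes, was 2.01-fold above recovered and 2.07-fold above acute cells. Chd6, a chromatin remodeller, spread over 8.86, 7.37 and 6.46 on the tolerant arrays, with the lowest of these close to the highest other array, 6.43.

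Enzymes of lipid and foreign compound metabolism were 8 members. Gstt1, a glutathione transferase, had tolerant levels of 9.83, 9.52 and 8.76, recovered levels of 7.96, 8.13 and 8.08, acute levels of 6.49, 5.37 and 6.27 and untreated levels of 4.91, 5.23 and 5.08. The 4 groups did not overlap, and the tolerant level was 19.6-fold the untreated, 10-fold the acute and 2.49-fold the recovered one. Dgat2, which makes triglycerides, was 5.25-fold above untreated, 2.50-fold above acute and 2.11-fold above recovered cells.

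Cyp4f18, which inactivates leukotriene B4, had tolerant levels of 12.30, 11.84 and 12.12 and was lowest in recovered cells, at 8.98, 8.54 and 9.54. It was 4.30-fold above untreated, 4.41-fold above acute and 8.39-fold above recovered cells. The probe named LOC100044439 lies 10 bases from the Cyp4f18 probe on mm9 and followed its values, 4.47, 4.81 and 9.54-fold, so both count as readings of the same stretch. Hsd11b1, which activates glucocorticoids within the cell, was 3.71-fold above untreated cells, the glutathione transferase Mgst2 3.58-fold, the phospholipase Pla2g5 3.63-fold, and Gatm, which makes the creatine precursor, 2.72-fold.

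Kinase signalling and cell cycle genes were 6 members. Dmpk, the myotonic dystrophy kinase, had tolerant levels of 10.02, 9.61 and 10.69 and recovered levels of 9.29, 8.36 and 8.71, against 6.44, 6.26 and 8.25 in untreated and 6.42, 6.73 and 7.94 in acute cells. It was 8.72-fold above untreated and 2.50-fold above recovered cells. Cdkn2b, the CDK inhibitor p15 and a known TGF-beta target, had tolerant levels of 10.05, 10.27 and 9.15 and was 3.07-fold above untreated, 6.47-fold above acute and 5.75-fold above recovered cells, while its relatives Cdkn2a (-0.66) and Cdkn2c (-1.30) were not highest in tolerant cells. The adaptor Bcar1 was 2.19-fold above recovered cells, the adaptor Grap 2.05-fold above acute cells, the Src-family kinase Fgr 2.05-fold above untreated cells, and Spred2, which restrains Ras signalling, 2.23-fold above untreated cells.

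Genes of actin and microtubules were 6 members, with untreated cells next highest for 4 of them. Fhod1, a formin that builds actin filaments, read 11.81, 11.73 and 11.67 in tolerant, 10.25, 10.38 and 11.02 in untreated, 9.51, 9.79 and 9.63 in recovered and 8.68, 8.44 and 9.40 in acute cells. It was 2.27-fold above untreated but 7.43-fold above acute cells. The LIM protein Pdlim7, the integrin-linked adaptor Parvg and the microtubule protein Tppp3 were 2.82, 2.06 and 3.66-fold above untreated cells. The myosin phosphatase subunit Ppp1r12b was well above background on 1 untreated array and on no acute or recovered array.

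Kif9, a kinesin motor, shows the largest spread among tolerant arrays, at 6.15, 9.52 and 6.62, an SD of 1.82. Its mean rests on tolerant array 2, since the other tolerant arrays exceed the highest other array, 6.14, by 0.48 or less. The SD of tolerant arrays was above 1 also for Chd6, F11r and Ppp1r12b, and the range of tolerant arrays was above 1 for 24 members.

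Vesicle genes were 3 members, all with untreated cells next highest. Rims3, a short member of the RIM family of active zone proteins, had tolerant levels of 9.61, 9.43 and 8.76. Its untreated levels were 7.61, 6.73 and 6.90, its acute levels 6.45, 6.46 and 6.09 and its recovered levels 6.81, 6.61 and 6.04. Recovered arrays overlapped both untreated and acute ones, and the tolerant level was 4.55-fold the untreated, 7.61-fold the acute and 6.86-fold the recovered one. Ppfia3, a liprin that binds RIM proteins, was 2.10-fold and Fcho1, a starter of clathrin-coated pits, 2.25-fold above untreated cells. A second Ppfia3 probe, well above background on the tolerant arrays, had a tolerant mean only 0.12 above the next group, with overlapping arrays. A second probe of Fcho1, well above background on the tolerant arrays, went the other way, with a tolerant mean -0.15 from the highest other group.

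Another 4 members lie in the Ly6 region of chromosome 15, which encodes small lipid-anchored surface proteins of leukocytes. The transcript ENSMUST00000023246, which the array describes as Ly6g, had tolerant levels of 7.59, 8.63 and 7.51 and recovered levels of 6.91, 6.09 and 5.76, and was not well above background in untreated or acute cells. It was at least 42.4-fold above untreated, at least 21.0-fold above acute and 3.15-fold above recovered cells. ENSMUST00000089689 was at least 31.9-fold, Gm3142 at least 13.0-fold and 9030619P08Rik 11.2-fold above untreated cells. Their probes start within 271.4 kb of each other on mm9, and the closest neighbours are 77.1 kb apart. Ly6f, between them, had a tolerant mean 1.45 above the next group but overlapping arrays. Close sequence copies in this region may share signal, so these probes are not independent genes for certain.

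The last 25 members have other or unknown roles, with distances of 1.01 to 2.57 to the next group. Among named genes, Olfml3, a secreted olfactomedin-like protein, had tolerant levels of 11.05, 10.61 and 10.62 and was 7.86-fold above untreated, 8.79-fold above acute and 4.06-fold above recovered cells. Tmem37, a calcium channel subunit-like membrane protein, read 14.47, 14.29 and 14.48 and was 5.07, 4.69 and 3.16-fold above the same groups. Rnf183, a membrane ubiquitin ligase, was measured on 1 recovered array only and at least 11-fold above untreated cells. Creld2, a protein of the stressed endoplasmic reticulum, ran from 13.10 to 14.69 over the tolerant arrays.

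Further named members were Acpp, Chadl, Fbxl21, Fhad1, Fkbpl, Fndc7, Pald1, Proca1, Spns3 and Tescl, which were 2.07 (Acpp) to 5.30-fold (Fndc7) above untreated cells where both groups were measured. No untreated array read Fbxl21 well above background, which gave at least 2.43-fold. The transcripts E230029C05Rik, F830208F22Rik, E030047D23Rik, D130040H23Rik, D5Ertd605e, G430095P16Rik, BC035044, Gm9733, Gm10638, ENSMUST00000105399 (described by the array as Trpm2) and the unnamed probe A_55_P2097048 complete the 25. Fndc7, a fibronectin-domain protein, had tolerant levels of 8.56, 8.18 and 7.65 and was 5.30-fold above untreated, 5.22-fold above acute and 4.26-fold above recovered cells. Gm9733 had tolerant levels of 6.42, 6.60 and 6.01 and was 7.16-fold above untreated and 4.33-fold above acute cells, each measured on 1 array, and at least 9.17-fold above recovered cells. E230029C05Rik, of unknown function, had tolerant levels of 7.28, 7.11 and 6.97 and was at least 28.6-fold above acute cells, and BC035044 was at least 17.2-fold above untreated cells.

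Some members lie close together. On mm9, 22 members have another member within 1 Mb, in 18 pairs, of which 5 are within 100 kb. ENSMUST00000105399, Pfkl and Dnmt3l lie on chromosome 10, with probe starts 25.4 and 75.2 kb apart, and the gene between the first pair, Cfap410, had a tolerant mean 0.96 above the next group. Fbxl21 and Tgfbi are 101.4 kb apart on chromosome 13, Fkbpl and Cfb 210.3 kb on chromosome 17, Fhod1 and Tppp3 138.4 kb on chromosome 8, and Mgarp and Mgst2 294.1 kb on chromosome 3. Whether neighbours share a cause was not tested.

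Probes that the rule did not use read the same RNA on the same arrays, so they describe the choice and are not an independent check. For 26 members the array held 33 other probes, of which 23 were well above background on all tolerant arrays. The tolerant mean was the highest for 22 of the 23, and 12 of them met both limits of the rule. Both other Pbxip1 probes did so, as did both other Bnip3 probes and the other Egln3 probe. Of 3 other well-measured Kif9 probes, distances to the next group ran from 0.52 to 0.71, under the limit. Other well-measured probes of Ppfia3 (0.12), Pdlim7 (0.49), Chd6 (0.81 and 0.52) and Fbxl21 (0.63) were under the limit too, with overlapping arrays. That of Rest (0.90) was under it without overlap, and that of Hmox1 (1.48) met it with overlap. Keeping probes well above background on the tolerant arrays favours those that read high there. Among the probes left out, the tolerant mean was not the highest for Fhad1 (-1.31 and -0.97 from the highest other group) or Chadl (-0.86). The same held for Gm10638 (-0.26), Pla2g5 (-0.15) and a Kif9 probe (-0.04), but not for Tescl, Dmpk, Proca1 and Ifitm10.

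The comparisons without tolerant arrays were not used by the distance in the rule, although the same acute, untreated and recovered arrays set its limits. They ask which members already differed after a first 4 h exposure to LPS, or at a second exposure after the long rest. They were tested with limma over all 20487 genes, and a call means an adjusted p (Benjamini-Hochberg) under 0.05. Recovered against untreated and acute against untreated share the untreated arrays. Of the 89 members, 52 were called in none of the 3 comparisons, among them Mgarp, Tgfbi, Pbxip1, Rims3, Id3, Egln3, Cyp4f18 and Hmox1. With the replicate number as a block 26 were called in none, Hmox1 among them, and the other named genes were each called in at least one comparison. The share of all genes called in none was not counted in either fit, so the 52 and the 26 have no reference.

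In acute against untreated cells, 9 of 89 members (10.1%) rose, where 14.3% of all tested genes did, and 8 (8.99%) fell, where 14.9% did. The members' median difference was -0.10 and that of all genes 0.02. The numbers of the replicates pair the samples (correlations of their deviations are given with the processing), and with the replicate number as a block 14 members rose and 23 fell, against 21.2% and 22.3% of all genes. The split moved with the scaling, to 9 higher and 14 lower after quantile normalization and to 10 and 15 with the authors' values. Quantile normalization called 13.5% and 20.7% of all genes as higher and lower, and the authors' values 17% and 28.5%. These scalings moved the median of all genes from 0.02 to -0.12 and -0.09, and relative to it the members' median was -0.12 as scaled here, -0.06 after quantile normalization and -0.07 with the authors' values. Among the 62 members well above background on all arrays of both groups, 7 rose and 3 fell. No share of all genes was counted under the same filter. Another 11 members were well above background on no array of either group, and 1 of these, E230029C05Rik, is among the 8 called as lower.

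Shisa3 rose by 4.87 (standard error 0.41, adjusted p = 5.19e-06), at least 29.2-fold. Cfb rose by 4.32 (standard error 0.30, adjusted p = 8.97e-07) and Slpi by 1.93 (standard error 0.30, adjusted p = 0.000453), each with all acute arrays above all untreated ones. Spic rose by 1.16, Dgat2 by 1.07, Ldlrad4 by 1.59, Gstt1 by 0.97, Grap by 0.49 and F830208F22Rik by 1.71. Fhod1 fell by 1.71 (adjusted p = 0.000376). Smad7 fell by 2.04 (adjusted p = 0.00231), at least 4.09-fold, with 2 untreated arrays well above background. Its call was lost with normexp background correction (adjusted p = 0.336). ENSMUST00000105399 fell by at least 5.78-fold, and Pdlim7, Gm10638, D130040H23Rik and G430095P16Rik also fell. E230029C05Rik was called as lower with no array of either group well above background, so its call is not read as a fall. The calls of Grap and Gstt1 were lost without any of 5 single arrays each, and those of G430095P16Rik and Gm10638 without 4 and 2, untreated replicate 1 among them each time. Without the arrays of the scan day of replicate 3, those of Gstt1 (adjusted p = 0.113), G430095P16Rik (adjusted p = 0.0967) and Gm10638 (adjusted p = 0.0519) were lost. The calls of Ldlrad4, D130040H23Rik, E230029C05Rik, Gm10638, G430095P16Rik and Gstt1 were lost with normexp too, that of Gstt1 also with the authors' values (adjusted p = 0.298), and that of Pdlim7 with the mean of its probes (adjusted p = 0.353).

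In recovered against untreated cells, 25 of 89 members (28.1%) rose, where 18.5% of all tested genes did, and 6 (6.74%) fell, where 16.9% did. The members' median difference was 0.17 and that of all genes 0.06. With the replicate block 36 rose and 16 fell, against 27.7% and 24.9% of all genes. The authors' values gave 24 higher and 10 lower, where they called 21.2% and 33.2% of all genes. Quantile normalization and the authors' values moved the median of all genes to -0.08 and -0.07. The members' median relative to all genes was 0.11, 0.19 and 0.19 in the 3 scalings. Without recovered replicate 1 the number that fell was 2. Of the 62 members well above background on all arrays of both groups, 16 rose and 3 fell, and the share of all genes under this filter was not counted. Another 5 members were well above background on no array of either group. Of these, 2 (Gm3142 and Saa2) are among the 25 called as higher.

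Of the Ly6 region, ENSMUST00000023246 rose by 3.75 (adjusted p = 0.0001, at least 13.4-fold), ENSMUST00000089689 by 3.43 (at least 10.5-fold) and 9030619P08Rik by 1.86 in recovered against untreated cells. Gm3142 was called as higher by 1.80 with no array of either group well above background. It entered the test through the tolerant arrays alone, so its call is not read as a rise. Of the defence proteins, Cfb rose by 5.14 (standard error 0.30, adjusted p = 2.19e-07), Slpi by 2.49 and S100a8 by 1.50. Saa2 was called as higher by 1.48, again with no array of either group well above background, and is not read as a rise either. Of the TGF-beta and BMP group, Id1 rose by 1.59 (standard error 0.34, adjusted p = 0.00388) and Ldlrad4 by 1.53. Smad7, with a difference of 0.04, Id3 and Tgfbi (1.17, adjusted p = 0.0676) did not pass the test, while with the replicate block Id3 (adjusted p = 0.00109) and Tgfbi (adjusted p = 0.00206) did. The neutrophil list summed to 16.6 to 18.2 in recovered and 10.8 to 16.4 in untreated cells, and the part of such cells in the Ly6 and S100a8 values was not tested.

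Shisa3 rose by 6.44, at least 86.9-fold, Gstt1 by 2.98, BC035044 by 2.74, F830208F22Rik by 2.26, Rnf183 by 2.24 and Dmpk by 1.80. Sema4a rose by 1.13 (standard error 0.15, adjusted p = 0.000143), Nr1h3 by 1.11 (standard error 0.28, adjusted p = 0.00941), Adora2b by 1.01, Spic by 0.98, Dgat2 by 1.32, Olfml3 by 0.95, Tmem37 by 0.68, E230029C05Rik by 0.78 and Bcar1 by 0.46. The 6 that fell were Spns3 by 1.65 (at least 3.14-fold), ENSMUST00000105399 by 1.28, Treml4 by 1.15, LOC100044439 by 1.09, G430095P16Rik by 1.05 and Fhod1 by 0.91. Of the low-oxygen and carbohydrate members none was called in this comparison, Mgarp standing at 1.11 (standard error 0.41, adjusted p = 0.0539) with no array of either group well above background. With the replicate block Mgarp (adjusted p = 0.0169), Pfkl (adjusted p = 0.005), Ldhb (adjusted p = 0.0437) and Ldhb-ps (adjusted p = 0.0407) passed the test. Calls were lost without any of 3 single arrays for Adora2b and E230029C05Rik, 4 for Dmpk, 5 for Olfml3 and Bcar1, 2 for Treml4 and Fhod1, 3 for G430095P16Rik and 8 for LOC100044439. Recovered replicate 1 was among these arrays for each gene but Adora2b, which lost its call without recovered replicate 3. Calls were lost after quantile normalization for Nr1h3 (adjusted p = 0.0773), Tmem37, Bcar1 and E230029C05Rik, with the authors' values for Saa2 (adjusted p = 0.15), Tmem37, Olfml3, Bcar1 and E230029C05Rik, and with normexp for Ldlrad4, Spns3, Treml4 and ENSMUST00000105399. With normexp G430095P16Rik turned to 0.15 (adjusted p = 0.357). Without the arrays of the scan day of replicate 3, calls were lost for Gm3142 (adjusted p = 0.052), ENSMUST00000105399 (adjusted p = 0.127), G430095P16Rik (adjusted p = 0.215), Bcar1 (adjusted p = 0.131), Adora2b, E230029C05Rik and LOC100044439.

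In recovered against acute cells, 10 of 89 members (11.2%) rose, where 1.47% of all tested genes did, and 0 fell, where 0.581% did. At an unadjusted p under 0.05 by limma, 33 members were higher and 3 lower. The share of all genes at that threshold was not counted, so these counts have no reference. The members' median difference was 0.36 and that of all genes 0.04. With the replicate block 26 rose and 4 fell, against 6.00% and 4.76% of all genes. Without single arrays the number that rose went to 4 (acute replicate 1), 2 (acute replicate 2), 6 (tolerant replicate 2), 2 (recovered replicate 1) and 3 (recovered replicate 2), and quantile normalization gave 6 and normexp 5. Of all genes, 0.981% rose after quantile normalization and 1.62% with normexp. The rule itself bears on this comparison, since the recovered group was the next highest for 49 members and the acute group for 9.

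The 10 were ENSMUST00000089689 (at least 8.33-fold, adjusted p = 0.00542), ENSMUST00000023246 (at least 6.67-fold) and 9030619P08Rik (2.48, standard error 0.36) of the Ly6 region, E230029C05Rik (at least 4.83-fold, 1 recovered array well above background), Smad7, Gstt1, Rnf183, Pfkl, Sema4a and Bcar1. Smad7 rose by 2.08 (standard error 0.40, adjusted p = 0.0332), at least 4.22-fold, with 1 recovered array well above background. Gstt1 rose by 2.01 (standard error 0.31, adjusted p = 0.0152), and Pfkl by 1.06 (standard error 0.24, adjusted p = 0.0479). Pfkl was the only member of the low-oxygen and carbohydrate group called in any of the 3 comparisons. With the replicate block Mgarp, Egln3, Bnip3, Ldhb and Ldhb-ps were also called in at least one, and the Ldhb and Ldhb-ps readings cannot be told apart. No single array left out ended the calls of ENSMUST00000089689 and E230029C05Rik, and the other 8 lost theirs without acute replicate 2 and without recovered replicate 1. The calls of Smad7, Rnf183, Bcar1, ENSMUST00000023246 and ENSMUST00000089689 were lost both with normexp and with the authors' values. That of E230029C05Rik was lost with normexp (adjusted p = 0.0654), those of Gstt1 (adjusted p = 0.0688) and Sema4a (adjusted p = 0.0516) with the authors' values, and that of Pfkl after quantile normalization (adjusted p = 0.0689). Id3 at 2.28 (standard error 0.59, adjusted p = 0.0781), Tgfbi at 1.89 (adjusted p = 0.0614) and Id1 at 1.50 (adjusted p = 0.053) were higher in recovered cells without passing the test. With the replicate block they passed, at an adjusted p of 0.00123, 0.00218 and 0.0258.

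**Figure D3:**
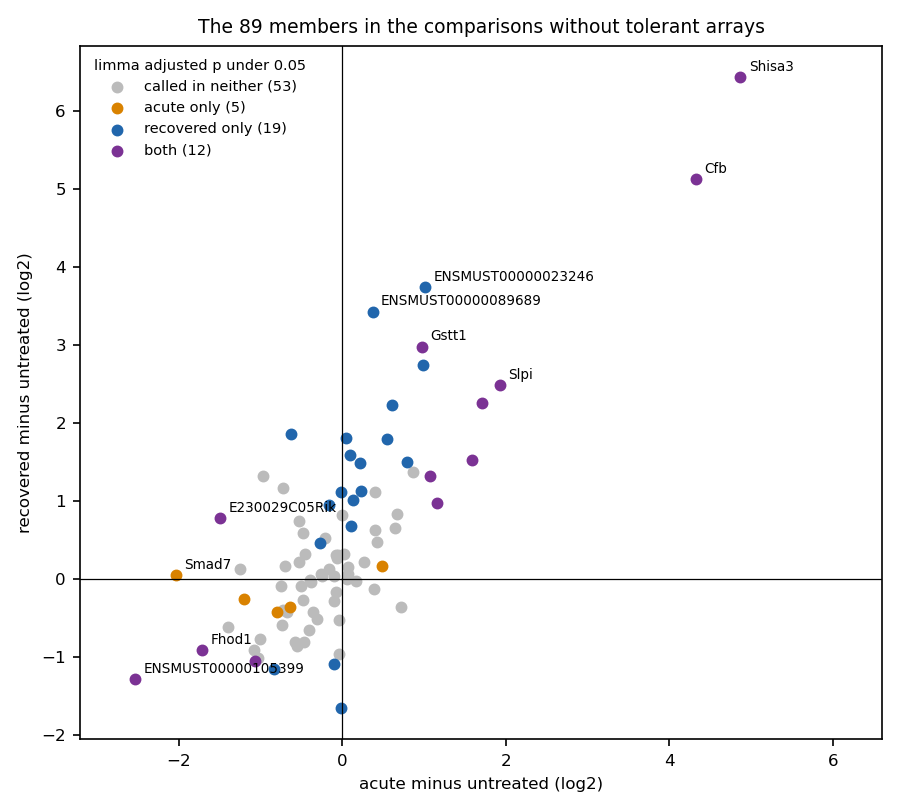
Difference of acute from untreated cells (horizontal, log2) against that of recovered from untreated cells (vertical, log2) for the 89 members, which share the untreated arrays. Colours mark limma calls, with 53 members called in neither comparison, 5 in the acute one alone, 19 in the recovered one alone and 12 in both. The shares of all genes in these classes were not counted. Shisa3 and Cfb lie far at the upper right, and Smad7 lies left near the horizontal line.

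Joint calls put the members in a few patterns. The share of all genes in each pattern was not counted, so the numbers of members in them have no reference. Shisa3, F830208F22Rik, Cfb, Spic, Slpi, Dgat2 and Ldlrad4 rose in both the acute and the recovered cells against untreated ones. Another 10, Saa2, Olfml3, Gm3142, Id1, Tmem37, Adora2b, BC035044, Dmpk, S100a8 and Nr1h3, were called as higher in recovered against untreated cells and in no other comparison. Gstt1 rose in all 3 comparisons. E230029C05Rik was called as lower in acute and higher in recovered cells, and Smad7 as lower in acute cells and higher in recovered than in acute cells. For each of these genes 1 recovered array and no acute array was well above background, and for E230029C05Rik no untreated array was either. Fhod1, G430095P16Rik and ENSMUST00000105399 fell in both acute and recovered against untreated cells.

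The other genes of the low-oxygen response were read from a list of 56 genes, of which 53 were tested and 5 are members. Of the 48 others, Ankrd37 and Slc16a3 met the values of the rule and were left out by name, which leaves 46 genes. The rule read these 46 in the same tolerant comparisons and did not choose them. The list was also written with earlier results of these data known, so the counts below are a description and no independent support. Of these 46, 16 (34.8%) were higher in tolerant than in acute cells, where 12% of all tested genes were, and 3 (6.52%) were lower, where 10.7% were. Against untreated cells 15 (32.6%) were higher and 4 (8.70%) lower, where 11.3% and 8.61% of all genes were. Against recovered cells 12 (26.1%) were higher and 3 (6.52%) lower, where 9.58% and 11% of all genes were. The medians of the 46 were 0.48, 0.38 and 0.39 against acute, untreated and recovered cells, and those of all genes -0.05, -0.02 and -0.09. The 3 comparisons share the tolerant arrays.

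Ankrd37, an ankyrin repeat protein raised by HIF, and Slc16a3, the lactate exporter MCT4, stood 3.98 and 2.57 higher in tolerant than in acute cells, which is given as a description because the rule had used it. Counted with them, the 48 genes gave 18, 17 and 14 higher than acute, untreated and recovered cells. Ak4, a mitochondrial adenylate kinase, was higher by 2.31 (standard error 0.41, adjusted p = 0.00229). Pfkp, the platelet phosphofructokinase, was lower by 2.08 (adjusted p = 0.000139), Plod2, a collagen lysyl hydroxylase, by 2.04 (adjusted p = 0.00467) and Nos2, the inducible nitric oxide synthase, by 1.41 (adjusted p = 0.0107). The Nos2 call was lost with the authors' values (adjusted p = 0.614) and without the arrays of the scan day of replicate 3 (adjusted p = 0.0529).

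With the replicate block the 46 split into 27 higher and 7 lower against acute, 25 and 8 against untreated and 20 and 5 against recovered cells. The block called 21.6% and 23.0% of all genes as higher and lower against acute, 18.8% and 18.7% against untreated and 19.8% and 25.3% against recovered cells. Without tolerant replicate 2 the number of the 48 higher than untreated was 11.

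**Figure D4:**
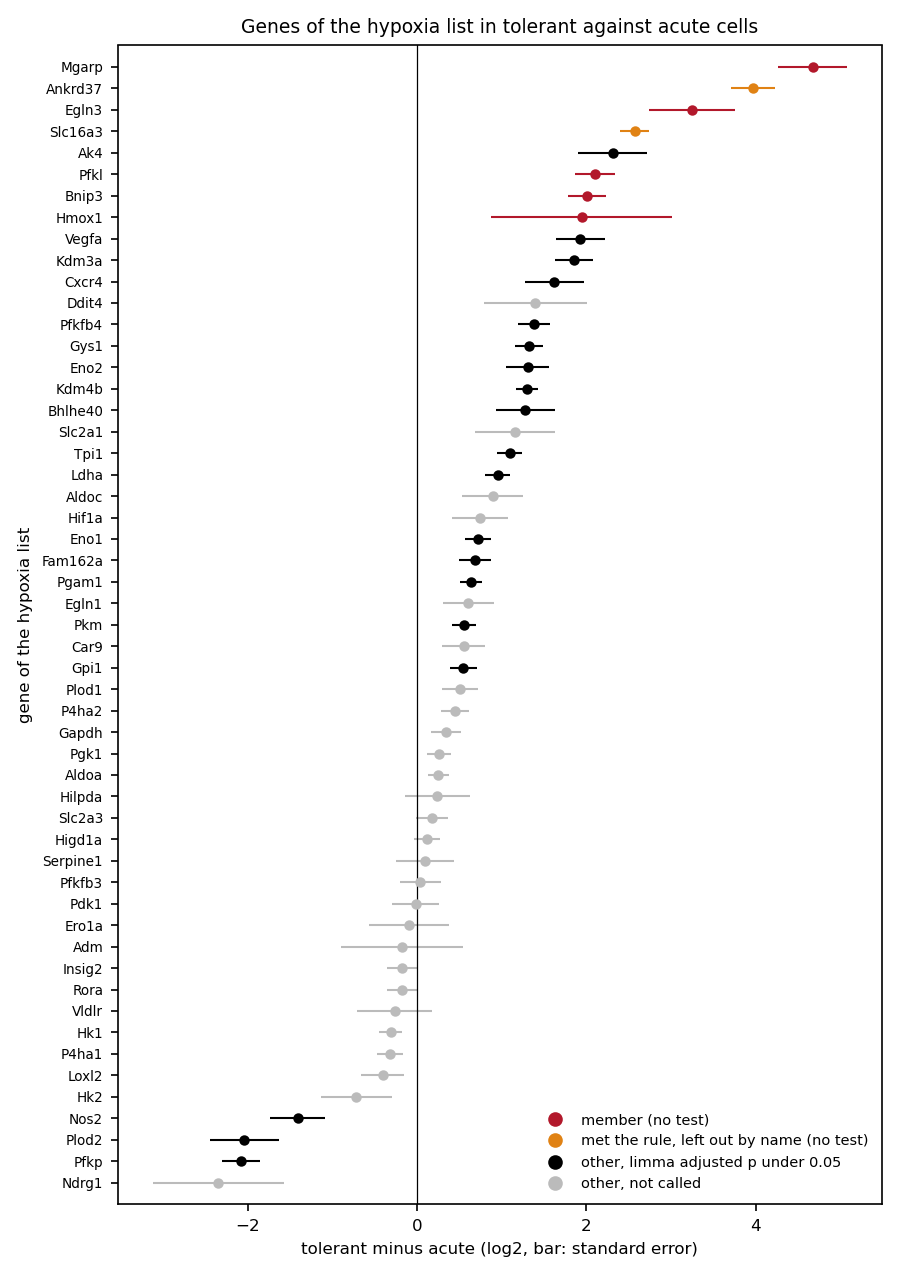
Difference of tolerant from acute cells (log2, bar: standard error of the limma fit) for the tested genes of the low-oxygen list, ordered by size. Red points are members and orange points Ankrd37 and Slc16a3, none of which carries a test, black points are other genes called by limma, and grey points are other genes not called. Ak4 is the highest black point, and Pfkp, Plod2 and Nos2 are the 3 called as lower.

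Genes of vesicle release were read beside Rims3, from a list of 46 of which 27 were tested. Of the 26 other than Rims3, 3 (11.5%) were higher and 5 (19.2%) lower in tolerant than in acute cells, and 3 (11.5%) and 4 (15.4%) were so both against untreated and against recovered cells, beside the shares of all genes given above. The authors' values gave 6 and 5 against recovered cells and the replicate block 5 and 8, and without tolerant replicate 2 or recovered replicate 3 the number higher was 1. Against recovered cells the authors' values called 20.9% and 15.3% of all genes as higher and lower, and the block 19.8% and 25.3%. The medians were -0.09, 0.06 and 0.00. Against acute cells Rab3a, a vesicle GTPase, was higher by 1.98 (standard error 0.14, adjusted p = 1.62e-05), Syt11, a synaptotagmin, by 1.13 (standard error 0.19, adjusted p = 0.00178), and Nsf, the ATPase that takes SNARE complexes apart, by 0.40 (standard error 0.13, adjusted p = 0.0417). The syntaxins Stx11 and Stx3 were lower by 1.33 (adjusted p = 0.00171) and 1.01 (adjusted p = 0.000913), and the SNARE protein Snap25 by 0.91 (adjusted p = 0.0395). The Stx11 call was lost with the authors' values (adjusted p = 0.151). The Nsf call was lost without any of 10 single arrays, those of untreated replicates 1 and 3 excepted, and without the day of replicate 3 (adjusted p = 0.156). The Snap25 call was lost without any acute array, without tolerant replicate 2 or 3 or recovered replicate 1, after quantile normalization (adjusted p = 0.0512) and without that day (adjusted p = 0.225). Of the other RIM genes, Rims1 had a tolerant mean -0.74 from the highest other group, and Rims2 and Rims4 were not well above background on all tolerant arrays.

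A list of dendritic cell maturation genes, none of them a member, had 22 tested genes. Against untreated cells 14 (63.6%) were higher in tolerant cells and 2 (9.09%) lower, beside 11.3% and 8.61% of all genes. Against acute cells 4 (18.2%) were higher and 5 (22.7%) lower, beside 12% and 10.7%, and against recovered cells 2 (9.09%) were higher and 8 (36.4%) lower, beside 9.58% and 11%. The medians were 2.04, -0.02 and -0.63. The rise over untreated cells was not particular to tolerant cells. In acute against untreated cells 16 of the 22 were higher and 2 lower (median 1.61), beside 14.3% and 14.9% of all genes. In recovered against untreated cells 17 were higher and 2 lower (median 2.45), beside 18.5% and 16.9%. For tolerant against recovered cells the authors' values gave 4 higher and 3 lower, where they called 20.9% and 15.3% of all genes. The replicate block gave 3 and 13, where it called 19.8% and 25.3% of all genes. Without tolerant replicate 1 or 2 or recovered replicate 2 or 3 the number lower went to 4, 5, 4 and 3. Against acute cells Fscn1, an actin bundler of mature dendritic cells, was higher by 2.57 (standard error 0.33, adjusted p = 0.000348), Lad1, the basement membrane protein ladinin, by 2.01 (adjusted p = 0.00268) and Pdcd1lg2, the PD-1 ligand PD-L2, by 0.67 (adjusted p = 0.0223). Cd86, a costimulatory ligand, was lower by 3.05 (standard error 0.59, adjusted p = 0.00386), the cytokine Il15 by 2.40 (adjusted p = 4.08e-05) and Cd83, a marker of mature dendritic cells, by 1.80 (adjusted p = 0.00136). With the authors' values the calls of Fscn1 (adjusted p = 0.124) and Il15 (adjusted p = 0.237) were lost. The Pdcd1lg2 call was lost with normexp (adjusted p = 0.101) and without acute replicate 1 or 2 or tolerant replicate 1.

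The choice of members was repeated under other processing of the same arrays. Quantile normalization gave 93 genes, 84 of them among the 89, and the authors' values 77, with 72 shared. Background correction by normexp gave 51, with 49 shared. Without tolerant replicate 3, the array on which 46 members were lowest in their group, 160 genes met the rule and 76 of the 89 were among them. Leaving out any other single array gave 84 to 98 genes. Without all 4 arrays of the scan day that held replicate 3, 126 genes met the rule and 75 were shared.

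**Figure D5:**
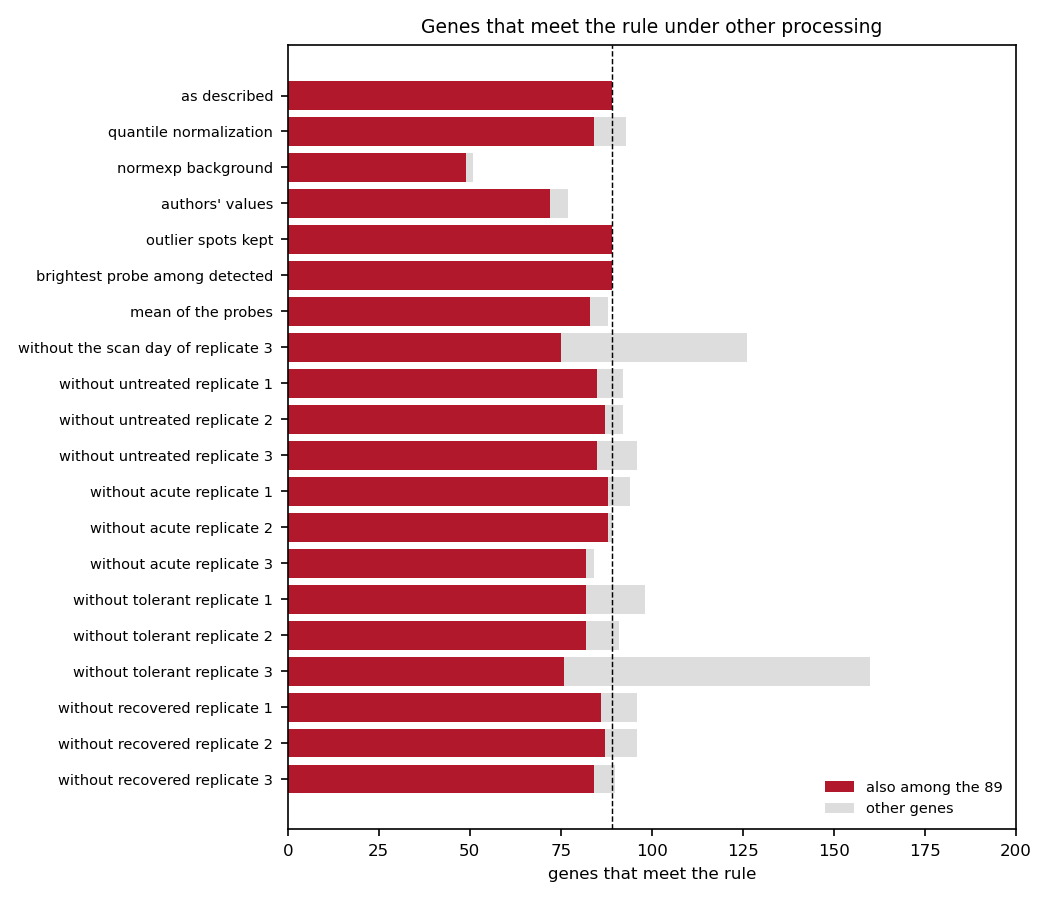
Number of genes that meet the rule (horizontal, count) under each alternative processing of the arrays (vertical), with genes also among the 89 in red and other genes in grey. The dashed line marks 89, and normexp with 51 and the choice without tolerant replicate 3 with 160 lie farthest from it.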

How the data were processed

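RNA of 12 samples, 3 for each of 4 groups, was hybridised to one-colour Agilent arrays with 62976 spots. The deposited scanner files hold the processed signal intensity of each spot, background-subtracted by Agilent Feature Extraction 10.7.3.1, per the file headers, with probe positions on mm9. A second deposited table holds the authors' log2 values, per the file headers without a stated normalization. Its 12 columns each matched their own array best (lowest r = 0.973), each has a median of 5.34, and its centring is not given in the sources used here. The submitters' processing notes name limma without a version.

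From the intensities, outlier spots and control spots were left out, log2 was taken, and each array's 75th percentile over 59305 spots (8.04 to 9.38) was subtracted. Each gene is represented by its brightest probe. No spot was saturated, and 47.8 to 55.0% of spots were well above background, which with 3 arrays a group limits precision. Between 135 and 233 spots an array were flagged as outliers. Groups were compared with limma 3.58.1 in R 4.3.3 (lmFit and eBayes, 8 residual degrees of freedom, all 4 groups in the fit, Benjamini-Hochberg over 20487 genes). Values were read and counted in Python 3.11.15 with numpy 2.4.6 and pandas 2.3.3, and plotted with matplotlib 3.10.9. The test was also run on simulated arrays drawn independently of each other. These lack the pairing of replicates described below, so that run says nothing about the test under such pairing.

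Arrays lay on 3 slides and 2 scan days, and all replicates 3 were alone on their slide and day. Deviations from group means correlated in all 18 same-numbered pairs of arrays (r = 0.276 to 0.774, median of other pairs -0.369), so the numbers pair the samples, and a fit with the replicate number as a block is given. The members and gene lists were chosen with earlier results of these data known. The rule for named genes covered Mgarp, Rims3 and Pbxip1, the 12 members with the largest distance to the next group, genes next to the limits, the 4 largest called rises and falls, members of the lists, members with close neighbours or a probe that went against the brightest, the other members by role, and of each list the 3 genes with the largest called differences in each direction between tolerant and acute cells. Alternatives were quantile normalization, normexp background correction, the authors' log2 values, no filter on dim probes, the mean of a gene's probes, an intensity trend, the replicate or slide block, the arrays without the day of replicate 3, and leaving out each array. Counting the low-oxygen list without the 2 genes left out by name was added after seeing the data. Of the marker lists, stromal genes were detected for 3 of 7, and mast cell and granulocyte genes for 1 of 6.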

Additional observations from a re-analysis of the deposited data

How the results depend on the processing

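Of 58 called member comparisons without tolerant arrays, 58 kept their call with the replicate block, 57 with the slide block, 55 with the mean of the probes, 54 with an intensity trend, 50 after quantile normalization, 48 without the filter on dim probes, 48 without the scan day of replicate 3, 45 with the authors' values and 40 with normexp. Without each array in turn 37 kept it, and 23 kept it in every alternative run. One reversed, G430095P16Rik in recovered against untreated cells, at 0.15 with normexp (adjusted p = 0.357). The causes were not tested.

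Members higher in acute than untreated cells numbered 9, and 14 with the replicate block and 15 with the slide block (single arrays left out, 7 to 10). Members lower numbered 8, and 14 after quantile normalization, 3 with normexp, 15 with the authors' values, 23 and 22 with the replicate block and slide block, and 14 without the day of replicate 3. Members lower in recovered than untreated cells numbered 6, and 10 with the authors' values, 16 and 13 with the blocks and 10 without that day (2 to 9 without single arrays). Members higher in recovered than acute cells numbered 10, and 6 after quantile normalization, 5 with normexp, 5 without the filter, 26 and 21 with the blocks and 21 without that day (2 to 11). Members lower there numbered 0, and 4 and 2 with the blocks. The number of members was 51 with normexp and 84 to 160 without single arrays. The shares of all genes called moved with the settings as well. For genes lower in acute than untreated cells the share was 14.9%, and 20.7% after quantile normalization, 14.4% with normexp and 28.5% with the authors' values.

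The count without Ankrd37 and Slc16a3 was chosen after seeing the data, and the low-oxygen counts here are of all 48 genes, 17, 18 and 14 of them higher than untreated, acute and recovered cells. For that list against untreated cells, both blocks gave 27 higher, and 8 and 7 lower (11 to 18 higher without single arrays). Against acute cells they gave 29 and 28 higher and both 7 lower, and the authors' values 5 lower. Against recovered cells the replicate block gave 22 higher, and both blocks 5 lower. For the dendritic list, the mean of probes gave 1 lower than untreated cells. Against acute cells the arrays without the day of replicate 3 gave 7 higher (2 to 5 without single arrays) and both blocks 8 lower. Against recovered cells the authors' values gave 4 higher and 3 lower, no filter 5 lower and the replicate block 13 lower (3 to 8). For the vesicle list, 3 were lower than acute cells without that day (3 to 5). Against recovered cells 6 were higher with the authors' values, 5 with the replicate block and 1 without that day (1 to 3), and 8, 7 and 2 lower with the replicate block, the slide block and without that day (2 to 4).

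With 3 arrays a group and one-colour intensities, levels near background have only bounds. Recovered replicate 1 lay on the slide of replicates 2, so the slide and replicate blocks differ. Within a slide or the day of replicate 3 a group has 1 array, or 2 on the slide shared by recovered replicates 1 and 2, so no test was run there. The first LPS exposure alone was not analysed here.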
